A study of Homo sapiens with 6 samples.

Results

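The last day of a retinoic acid time course in NB4 cells, from 48 to 72 h, was examined gene by gene as the log2 value of the 72 h array minus that of the 48 h array. Every probe set with 1 annotated gene entered, apart from control probe sets, which gave 41091 of the 54675 probe sets on the array and 19775 genes. Where a gene had several probe sets, the one with the largest average signal stood for it. Genes were kept when at least 1 array reached 3.66 on the log2 scale, the median of all values and the level below which a signal was treated as low. This left 13594 genes, while 6181 stayed below that level on every array. A group of 171 genes passed through the 72 h array alone and so had to be higher there.

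NB4 cells derive from a human acute promyelocytic leukaemia and carry the PML-RARA fusion receptor, to which all-trans retinoic acid (ATRA) binds. The 6 arrays covered untreated cells (0 h) and cells kept in 1e-06 M ATRA for 4, 12, 24, 48 and 72 h, with 1 array per time and no replicates. All came from the same line in serum-supplemented medium, and the labels give no untreated culture at 48 or 72 h, so time in ATRA and time in culture cannot be told apart. Each difference below is therefore a difference of 2 single arrays with no replicate check, and no p-value is given.

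ATRA releases promyelocytic leukaemia cells from their maturation block. They leave the cell cycle, shrink their protein-making machinery and take on features of neutrophils. In the bone marrow, granule proteins are made in a fixed order, azurophil proteins first and gelatinase proteins later, and receptors for chemoattractants, antibodies and complement are added near the end. Type I interferons, which are secreted antiviral cytokines, act through JAK kinases to switch on a broad antiviral programme.

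The 6 arrays had closely matched medians, between 3.64 and 3.69. The spiked bacterial control bioC read 6.88 at 48 h and 7.17 at 72 h, and all 18 hybridisation control probe sets were higher on the 72 h array. All 24 poly-A spike probe sets were higher too, by 0.36 on average. Some controls also set earlier arrays apart. Mean bioC was 8.01 at 0 h and 8.11 at 12 h, and between 6.88 and 7.17 on the other arrays. Mean bioB ran the other way, at 6.54 and 6.57 against 6.88 to 7.14. Mean 18S rRNA read 8.63 at 12 h and at most 5.88 on the other arrays. Comparisons with untreated cells, ranks among the 6 arrays and flat courses include these arrays, and the part of such differences in them was not tested. Setting the arrays to equal controls lowered the 72 h minus 48 h difference of all genes. The shift was 0.34 with the median level of all hybridisation controls, 0.21 with the mean of bioB, bioD and cre, and 0.36 with the mean of the poly-A spikes. The 0.34 is a difference between medians over the 18 levels of each array. It exceeds the mean rise of these probe sets, which was 0.22. The part of these shifts in the results was not tested. These 3 settings are called control-based scalings below. Counts and medians that moved under them are given for many groups but not for all, so a group without them may have moved too. Promyelocyte markers were high on both arrays, with MPO at 11.43 and 10.92 and PRTN3 at 11.52 and 11.07. Neutrophil markers at 72 h included S100A8 at 13.13, CSF3R at 10.06 and ITGAM at 9.90, while LTF was at 4.12, close to the low-signal level.

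From 48 to 72 h, 644 genes were 2-fold or more higher and 291 were 2-fold or more lower, which is 4.74% and 2.14% of the 13594 kept genes. The differences of single genes had an SD of 0.593 and a median of -0.05. The steps before it held fewer such genes. From 24 to 48 h, 237 genes (1.74%) were higher and 76 (0.559%) lower, and from 4 to 24 h 341 (2.51%) were higher and 129 (0.949%) lower. The 24 to 48 h and 48 to 72 h steps share the 48 h array. The larger differences of the last day lay on the higher side. At 4-fold, 166 genes were higher and 4 lower, and at 16-fold 20 were higher and 0 lower. Of all calls 68.9% were higher, but this share depended on the scaling: it was 81.6% after cyclic loess, 41.6% with bioB, bioD and cre set equal, 26.1% with all hybridisation controls set equal and 24.4% with the poly-A spikes set equal.

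Low-signal genes gave few of these calls. Of the 644 higher genes 70 were below the low-signal level at 48 h, and of the 291 lower genes 23 were below it at 72 h. For the 479 called genes with several probe sets above the level, 425 (88.7%) had all of them on the same side. The value at 72 h was the highest of the 6 arrays for 632 of the 644 higher genes and the lowest for 284 of the 291 lower genes. Many genes sat close to the threshold, with 253 lower by 1.8- to 2-fold and 130 lower by 2- to 2.2-fold.

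**Figure D1:**
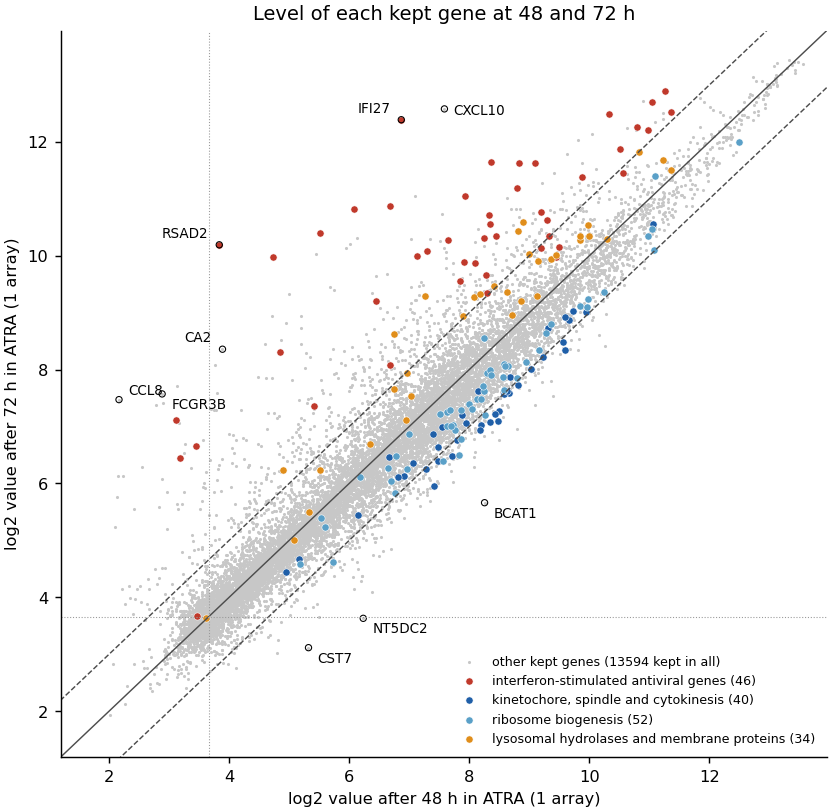
Log2 value of each of the 13594 kept genes at 48 h (horizontal axis) and 72 h (vertical axis), 1 point per gene and 1 array per time. The solid line marks equal values, the dashed lines 2-fold differences and the dotted lines the low-signal level of 3.66; the interferon-stimulated genes (46, red) lie above the diagonal, the kinetochore genes (40, dark blue) below it, and named genes are circled.

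The genes furthest above their 48 h value were antiviral and inflammatory. RSAD2, which encodes the antiviral enzyme viperin, read 3.07, 2.40, 2.58, 2.77 and 3.84 from 0 to 48 h and 10.19 at 72 h. That is a difference of 6.36, or 81.9-fold, seen in 2 of 2 probe sets. IFI27, an interferon-induced protein of mitochondria, stood at 3.39, 3.39, 3.65, 2.87, 6.87 and 12.39 over the 6 times and was 45.9-fold higher at 72 h than at 48 h. Next in size were XAF1 (38.1-fold), CXCL10 (31.8-fold), OAS2 (29.4-fold), ISG20 (26.8-fold) and GBP1 (24.0-fold). Not all of the leading genes are antiviral. CA2, a carbonic anhydrase, read 6.85, 6.19, 4.77, 3.93 and 3.89 up to 48 h and 8.36 at 72 h, so a level that had been lower on each later array was at 72 h above that of untreated cells. The inhibitory ligand CD274 (PD-L1) was 20.1-fold higher, VSIG4, a complement receptor of the immunoglobulin family, went from 3.77 to 8.07, and HAVCR2 (TIM-3) from 4.71 to 8.94.

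Genes furthest below their 48 h value were smaller in their differences and mixed in function. BCAT1, the cytosolic branched-chain aminotransferase, read 10.44, 9.90, 9.50, 9.57, 8.25 and 5.66, a difference of -2.59 or 6.03-fold lower at 72 h, in the same direction in all 4 of its probe sets. FBN2, a microfibril protein, was lower by 4.88-fold and ACO1, the cytosolic aconitase that doubles as an iron sensor, by 3.76-fold. The gap junction gene GJA1 (-1.84), the cholesterol importer STAR (-1.85), the apoptosis inhibitor FAIM (-1.84) and the glycine cleavage subunit GCSH (-1.73) followed. DANCR, a long noncoding RNA that hosts small nucleolar RNAs, read 10.26 at 48 h and 8.42 at 72 h. NT5DC2 ended below the low-signal level and was at least 5.94-fold lower, and CST7, a cysteine protease inhibitor of granules, read 9.50, 9.25, 8.02, 7.20, 5.32 and 3.12 and was at least 3.16-fold lower. BCAT1 and CST7 were thus below their untreated level well before 72 h.

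Genes of cell division were lower at 72 h as a block. Over 3 lists, covering the kinetochore, spindle and cytokinesis, the mitotic kinases and cyclins, and mitotic exit with chromatid separation, 88 of 89 kept genes had a lower value at 72 h than at 48 h and 31 (34.8%) were 2-fold or more lower, where 2.14% of all kept genes were. None was 2-fold higher, and the median was -0.81 against -0.05 for all kept genes. The count of 31 was 12 after cyclic loess and 45 to 63 under the control-based scalings, while at least 88 of the 89 were lower in each of these. For 85 of the 89 the 72 h array was the lowest of the 6, while it was so for 35.1% of all kept genes.

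CDC20, which activates the anaphase-promoting complex, read 9.99, 10.23, 9.98, 10.03 and 9.83 from 0 to 48 h and 8.54 at 72 h. CCNB1, the cyclin that drives entry into mitosis, read 10.11, 10.37, 10.05, 10.12 and 10.06 and then 8.92. BUB1B, a spindle checkpoint kinase, read 9.45, 9.11, 9.38, 9.37 and 8.99 and then 7.64. In each of these the arrays from 0 to 48 h lay close together and the 72 h array stood apart, 2.43-fold below the 48 h level for CDC20, 2.20-fold for CCNB1 and 2.56-fold for BUB1B. SPC25, a subunit of the NDC80 kinetochore complex, followed the same course, from 7.41 at 48 h to 5.95 at 72 h (2.76-fold lower).

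In the kinetochore, spindle and cytokinesis list all 40 members were lower and 20 were 2-fold or more lower, with a median of -0.97. Among the others with the largest differences were NUF2 and CENPE at the kinetochore, the checkpoint gene MAD2L1 and the motor proteins KIF14 and KIF23. The count depended on the scaling, with 8 of the 40 at 2-fold or more lower after cyclic loess and 32 with all hybridisation controls set equal, but all 40 were lower in both. Of 24 mitotic kinase and cyclin genes 8 were 2-fold lower (median -0.78), among them NEK2 (-1.47), AURKA (-1.17) and PLK1 (-1.10). The mitotic exit list had 3 of 25, CDC20, SGO2 and TOP2A, and a median of -0.70. With all hybridisation controls set equal, 15 of the 24 kinase and cyclin genes and 13 of the 25 exit genes were 2-fold lower. After cyclic loess 3 and 1 were.

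Many genes of this group carry a CHR element, the short promoter motif through which the DREAM complex and B-MYB act on cell cycle genes, and the stretches below show it in genes that were lower at 72 h. The motif searched was TTTGAA on either strand, within 300 bases from 250 before to 50 after the gene start in the RefSeq promoter table (GRCh38.p14). It was present in 25 of 34 kinetochore list promoters (73.5%), in 15.5% of all 27302 promoters of the table and in 10.25% of the 10861 promoters of kept genes. CCAAT, searched on both strands as well, was present in 73.5% of the 34, in 35.7% of all and in 36.1% of those of kept genes. BUB1B and PLK1 are from the mitotic kinase and cyclin list, where TTTGAA was present in 8 of 18 promoters (44.4%). Only 75% of the kept genes of that list had a promoter in the table. Among all genes 2-fold or more lower, TTTGAA was present in 47 of 239 promoters (19.7%). A match describes the letters in the window and not a bound site. The 60-base stretches are those of BUB1B (chr15:40161009-40161068, plus strand), PLK1 (chr16:23678829-23678888, plus strand), KIF23 (chr15:69414267-69414326, plus strand) and SPC25 (chr2:168890621-168890680, minus strand), all upstream of the gene start, written 5′ to 3′ with the CHR match in capitals.
BUB1B: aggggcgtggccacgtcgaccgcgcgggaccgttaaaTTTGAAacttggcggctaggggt
PLK1: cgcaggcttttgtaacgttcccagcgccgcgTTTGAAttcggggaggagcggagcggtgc
KIF23: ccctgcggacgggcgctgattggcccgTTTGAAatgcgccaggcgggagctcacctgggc
SPC25: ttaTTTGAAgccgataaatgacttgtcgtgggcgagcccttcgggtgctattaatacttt
The match ends 18 bases before the start in BUB1B, 24 in PLK1, 50 in KIF23 and 242 in SPC25.

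DNA replication genes were lower as well, by less. Over the lists for origin licensing and firing, replication fork proteins and nucleotide synthesis, 77 of 78 kept genes were lower at 72 h and 12 (15.4%) were 2-fold or more lower, with a median of -0.70 and none 2-fold higher. The count of 12 was 3 after cyclic loess, with 73 of 78 lower, and 29 to 44 under the control-based scalings, with all 78 lower. MCM6, a subunit of the replicative helicase, read 10.77, 10.95, 10.52, 10.70, 10.53 and 9.62, and MCM7 read 10.87, 10.95, 10.49, 10.48, 10.26 and 9.43. Both stayed short of 2-fold, at 1.88- and 1.78-fold lower. The origin genes GINS2 (-1.17), MCM10 (-1.10) and CDC6 (-1.09), and the fork protein WDHD1 (-1.51) did pass it. Among nucleotide enzymes, DTYMK, which makes dTDP, was lower by 2.25-fold, NME1, a nucleoside diphosphate kinase, by 2.18-fold, and RRM2, the small subunit of ribonucleotide reductase, by 1.78-fold.

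The E2F site, the motif through which E2F factors act on S-phase genes, was searched as TTTNGCGC on both strands because MCM genes are known to carry it. It was found in 9 of 22 origin list promoters (40.9%) and 6 of 23 fork list promoters (26.1%). The share was 1.81% of all promoters and 2.75% of the promoters of kept genes. The 60-base stretches from MCM6 (chr2:135876496-135876555, minus strand) and MCM7 (chr7:100101398-100101457, minus strand) are from the same RefSeq table and build, with the matches in capitals.
MCM6: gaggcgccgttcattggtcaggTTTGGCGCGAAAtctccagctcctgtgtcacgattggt
MCM7: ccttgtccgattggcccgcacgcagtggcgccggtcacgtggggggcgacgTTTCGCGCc
In MCM6 a match on each strand overlaps the other, and in MCM7 a single match ends 2 bases before the start.

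The control layer above these genes had fewer calls. None of 23 G1 cyclin, CDK, E2F and RB family genes was 2-fold different, and their median was -0.24, but 3 to 8 were 2-fold lower under the control-based scalings, with medians from -0.60 to -0.47. Of 10 CDK inhibitor and growth arrest genes only GADD45B, a stress-induced growth arrest gene, was 2-fold higher (1.05), with CDKN1A (p21) at 0.08 and CDKN2D (p19) at 0.18. The median of these 10, 0.13, turned negative under all 3 control-based scalings, and 1 of the 10 was kept through the 72 h array alone. MYC, the growth-promoting transcription factor, read 11.77, 10.69, 11.19, 11.29, 10.40 and 9.62, a difference of -0.78. MXD1, which competes with MYC for its partner MAX, read 7.66 at 48 h and 9.08 at 72 h, 2.67-fold higher, and was the only called member of the 11 in the MYC network list, whose median of 0.01 turned negative under the control-based scalings (-0.35 to -0.20). TERT, the catalytic subunit of telomerase, differed by -0.26.

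Some genes were flat up to 48 h and different only at 72 h. Of 7699 kept genes whose 5 arrays from 0 to 48 h spanned under 0.6 on the log2 scale, 72 (0.935%) were then 2-fold or more lower and 118 (1.53%) higher, and 42 of the 118 passed the low-signal level through the 72 h array alone. The lower set was led by the methyltransferase ATPSCKMT, MTHFD2L, a mitochondrial folate enzyme, PRR11, TIMM21, a subunit of the inner membrane translocase, NEK2 and UHRF1, which maintains DNA methylation at replication. For ATPSCKMT the mean over its 2 probe sets was -1.04, against -1.78 in the one used. MTHFD2L averaged -0.79 over 5 probe sets and PRR11 -0.65 over 3, both short of 2-fold. UHRF1 read 9.87, 9.79, 9.89, 9.54 and 9.81 before 8.34 at 72 h. SPC25, DEPDC1 and BUB1B were also among the 10 largest differences of the lower set. TTTGAA was present in 41.7% and CCAAT in 63.3% of the 60 promoters matched for these 72 genes. The higher set was led by CCL8, FCGR3B, RIN2, IFNA1 and IFNA2, which are described with their groups.

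Some histone genes ran the other way. Of 19 kept histone genes 7 (36.8%) were 2-fold or more higher, where 4.74% of all kept genes were, and none was 2-fold lower. The other 12 were within 2-fold, and a further 23 histone genes stayed below the low-signal level. The median of the 19, 0.16, turned negative under the control-based scalings. H2AC6 read 3.04, 3.05, 3.08, 3.51 and 4.59 up to 48 h and 8.44 at 72 h, 14.5-fold above 48 h. H2BC21 was 5.86-fold, H2BC5 4.80-fold and H1-2 3.11-fold higher. Histone genes are near-identical copies, so a probe set can read several of them, and without the x_at probe sets, which can match several transcripts, 4 of 13 were 2-fold higher.

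**Figure D2:**
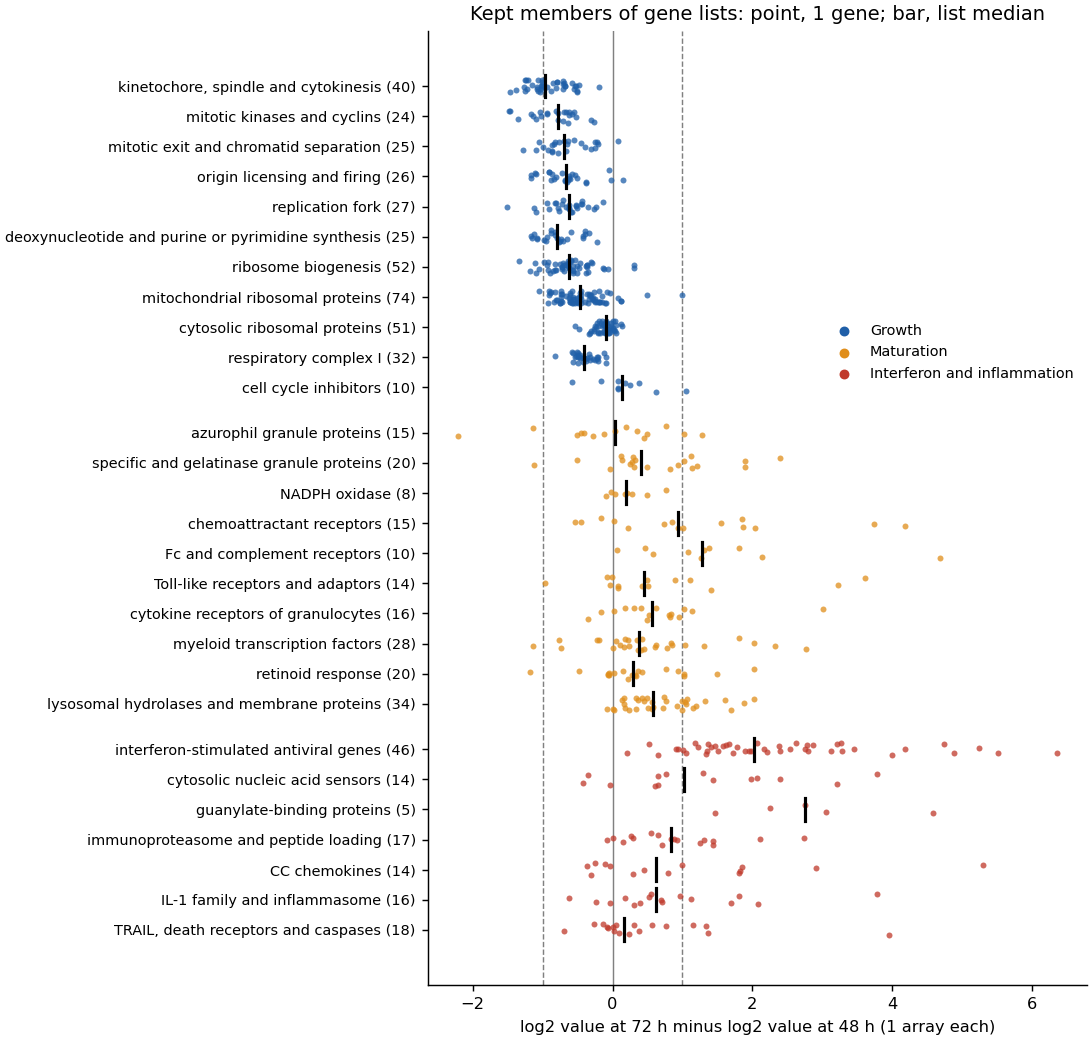
Log2 difference between 72 and 48 h of every kept member of 28 gene lists, 1 point per gene, with the list median as a bar and dashed lines at 2-fold. The lists for division, replication and ribosome making sit left of 0, with medians such as -0.97 for kinetochore genes, and those for interferon and surface receptors right of it, with 2.03 for interferon-stimulated genes.

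Ribosome making was lower with a median of -0.63 over 52 kept ribosome biogenesis genes, 5 of which were 2-fold lower and none higher. The count was 3 after cyclic loess and 14 to 22 under the control-based scalings, with at least 48 of the 52 lower in each. GNL3L, a nucleolar GTPase, read 9.12, 8.20, 8.60, 8.34, 7.83 and 6.49 and was 2.52-fold lower. RNA polymerase I and III genes (33) had a median of -0.38 and no call, against 4 to 6 lower under the control-based scalings. The 51 cytosolic ribosomal protein genes had a median of -0.10 with no call, which became 0.18 after cyclic loess, and RPL3 differed by -0.54. Their levels were near the top of the scale, with a median of 12.65 at 48 h. Of 39 translation initiation and elongation factor genes 3 were 2-fold lower (median -0.46), EIF4B by -1.29. This count was 7 with all hybridisation controls set equal and 1 after cyclic loess. The 74 mitochondrial ribosomal protein genes had a median of -0.47 with 1 call each way, MRPL40 higher and MRPS2 lower, but 10 to 19 were 2-fold lower under the control-based scalings. The E-box CACGTG, at which MYC binds, was present in 48.9% and the ETS-type motif CCGGAAG in 44.4% of 45 ribosome biogenesis promoters. The shares were 7.40% and 10.6% of all promoters, and 9.95% and 17.7% of the promoters of kept genes, with both strands searched.

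The machinery for folding and splicing also had negative medians. Chaperonin and heat shock protein genes (24) had a median of -0.48 and no call, and splicing genes (59) a median of -0.39 with 1 call, HNRNPA0 at -1.61. These few calls hold for the deposited scaling, since 3 to 9 chaperone genes and 5 to 9 splicing genes were 2-fold lower under the control-based scalings. Respiratory complex I genes (32) stood at -0.41 and those of complexes II to V (36) at -0.26, with no call in either. The proteasome core and cap (30 genes, median -0.20, no call) turned to 0.03 after cyclic loess. Glycolysis genes, by contrast, had a median of 0.07 over 23 genes and no call, and that sign turned under the control-based scalings.

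Genes of amino acid metabolism and its stress response lay on both sides. Of 25 kept genes of serine, glycine and amino acid response, 2 were 2-fold lower and 3 higher, and 5 to 7 were lower under the control-based scalings. The lower ones were BCAT1 and PSAT1, an aminotransferase of serine synthesis, which read 9.59, 9.37, 8.57, 8.38, 8.09 and 6.55. The amino acid transporter SLC7A5 (-0.97) and the arginine synthesis enzyme ASS1 (-0.89) came next. The higher ones were transcription factors of the stress response, ATF3 (7.39-fold), ATF5 (3.87-fold) and DDIT3 (3.59-fold). ATF3 read 5.00, 4.51, 4.37, 4.98 and 5.34 up to 48 h and 8.22 at 72 h, so it was apart only on the last array. ATF4 (0.23) and its target ASNS (0.19) were close to their 48 h level.

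Granule proteins, the classical markers of neutrophil maturation, differed in both directions. Over the azurophil list and the specific and gelatinase list together, 8 of 34 kept genes were 2-fold higher (23.5%, against 4.74% of all kept genes) and 3 lower (8.82%, against 2.14%). QPCT passed the low-signal level through the 72 h array alone, and the higher count was 3 to 5 under the control-based scalings. The azurophil serine proteases CTSG (-0.41) and PRTN3 (-0.45) were slightly lower, and so was MPO (-0.51), which is not a protease. MS4A3 (-1.14) and CST7 were the called azurophil members on the lower side and SERPINB1 (1.27), an inhibitor of neutrophil elastase, and lysozyme LYZ (1.02) on the higher side. The azurophil median of 0.03 turned negative under the control-based scalings.

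Among 20 specific and gelatinase granule genes 7 were 2-fold higher, and several of these had low levels. ARG1, arginase, read 2.85, 2.47, 2.67, 3.05, 4.04 and 5.94. CAMP, the cathelicidin precursor, lay between 5.58 and 5.99 until 48 h and read 7.12 at 72 h. QPCT, glutaminyl cyclase, was at least 3.72-fold higher, MMP8, neutrophil collagenase, 2.19-fold. The gene for lactoferrin, LTF, differed by 0.49 and that for gelatinase B, MMP9, by 0.31. CRISP3 was the exception, at 2.61 at 24 h, 5.52 at 48 h and 4.39 at 72 h. The 8 NADPH oxidase genes, whose complex makes the oxidative burst, had no call and a median of 0.20, which turned negative under the control-based scalings.

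Surface receptors were the maturation group with the larger differences. Over the lists for chemoattractant receptors, Fc and complement receptors, Toll-like receptors and cytokine receptors, 21 of 55 kept genes (38.2%) were 2-fold higher, where 4.74% of all kept genes were, and none was 2-fold lower. The median was 0.81, and for 39 of the 55 the 72 h array was the highest of the 6, against 23.9% of all kept genes. Of the 55, 3 passed the low-signal level through the 72 h array alone and had to be higher there; without them 20 of 52 were 2-fold higher and 36 of 52 highest at 72 h. Under the control-based scalings 14 to 16 genes were 2-fold higher and 1 was lower.

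C5AR1, the receptor for the complement fragment C5a, read 3.77, 4.31, 3.99, 4.21 and 6.02 up to 48 h and 10.20 at 72 h, 18.2-fold above 48 h. FPR1, the receptor for bacterial formyl peptides, read 3.94, 3.86, 4.20, 3.70, 5.24 and 7.11, and was 3.66-fold higher. Both were near the low-signal level until 24 h. HCAR3, a hydroxy acid receptor, was 13.4-fold higher, with a probe set that may also read the near-identical HCAR2. C3AR1 (4.11-fold), CCRL2 (3.61-fold) and CCR1 (2.93-fold) complete the called members of this list together with PTAFR, the receptor for platelet-activating factor, which was just past 2-fold. The interleukin-8 receptors stayed out, with CXCR1 at 0.02 and CXCR2 at -0.46.

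Among Fc and complement receptors 7 of 10 were 2-fold higher, with a median of 1.29, and 4 to 6 of 10 under the control-based scalings. One of them, FCGR3B, was kept through the 72 h array alone. FCGR3B, the neutrophil CD16, read 2.44, 2.36, 2.71, 2.40 and 2.88 up to 48 h and 7.57 at 72 h, at least 15-fold higher, and its probe set may also read FCGR3A. FCER1G, the signalling chain shared by several Fc receptors, was 4.39-fold higher, FCGR2B 3.49-fold and FCGR2A 2.40-fold. The genes for the IgA receptor FCAR (1.39), the neonatal Fc receptor FCGRT (1.31) and the complement regulator CD55 (1.08) were the remaining called members.

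Sensors of microbial products differed member by member. LY96 (MD-2), which completes the endotoxin receptor, read 3.03, 3.05, 2.86, 2.19, 3.70 and 7.31, and TLR1 lay between 2.83 and 3.18 until 24 h and read 4.61 at 48 h and 7.84 at 72 h. MYD88, the shared adaptor, was higher by 1.41 and TLR6 by 1.11, while TLR2 (-0.08) and TLR4 (0.42) were close to their 48 h levels and the pathway inhibitor IRAK3 differed by -0.97. The list median of 0.46 became -0.10 with the poly-A spikes set equal. Among 16 cytokine receptor genes IL10RA, a receptor chain for interleukin-10, was 8.03-fold higher and CSF3R, the G-CSF receptor, read 6.20, 7.52, 8.53, 8.67, 9.10 and 10.06, just short of 2-fold in the last step.

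Other neutrophil genes were mixed. S100A12, a secreted calcium-binding protein, read 2.84, 2.92, 2.90, 3.34, 7.03 and 10.29 and was 9.56-fold higher at 72 h. S100A8 (0.42) and S100A9 (0.60), of the same family, were already near the top of the scale at 48 h. AQP9, a water and glycerol channel, read 3.58, 3.43, 3.44, 3.89, 6.14 and 10.31, 18-fold higher. Of 19 adhesion genes 4 were 2-fold higher, JAML, CEACAM1, ICAM1 and ITGAX, while ITGAM, the CD11b chain, differed by 0.35 with 1 of its 2 probe sets on each side. The actin remodelling list had 2 calls among 27 and a median of 0.10, which turned negative under control-based scalings.

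Lysosomal genes were higher as a group. Of 34 kept members 33 had a higher value at 72 h than at 48 h, 11 were 2-fold higher, where 4.74% of all kept genes were, none was lower, and the median was 0.58. Under the control-based scalings 4 or 5 of the 34 were 2-fold higher, 7 to 10 were below their 48 h value and the median lay between 0.22 and 0.37. CTSB, cathepsin B, lay between 7.15 and 7.67 from 0 to 48 h and read 9.29 at 72 h, 4.06-fold higher than at 48 h in all 5 of its probe sets. CTSL was 3.68-fold higher, the cholesterol carrier NPC2 3.25-fold and CTSD 2.05-fold. For 30 of the 34 the 72 h array was the highest of the 6. Autophagy genes (32) had 4 calls and a median of 0.21, but that median turned negative with all hybridisation controls or the poly-A spikes set equal.

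Among 28 myeloid transcription factors 6 were 2-fold higher and 1 lower, with a median of 0.38. KLF4, a factor of monocyte maturation, was at least 3.81-fold and KLF6 at least 4.79-fold higher, FOS 4.08-fold and BCL6 2.49-fold. The lower one was WT1, a factor of immature leukaemic cells, which read 9.13, 7.53, 7.86, 7.22, 5.58 and 4.44. CEBPE, which drives late granulocyte maturation, read 8.19 in untreated cells, 10.45 at 48 h and 10.69 at 72 h. The direct retinoid response showed little further difference for several members, with CYP26A1, the retinoic acid hydroxylase, at 0.03, TGM2 at 0.34 and RARA at 0.32. CYP26B1 (4.06-fold), PLAAT4 (2.81-fold) and CD38 (1.02) were higher, RDH10, a retinol dehydrogenase, was lower by 2.28-fold, and the list median of 0.30 turned negative with all hybridisation controls or the poly-A spikes set equal.

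**Figure D3:**
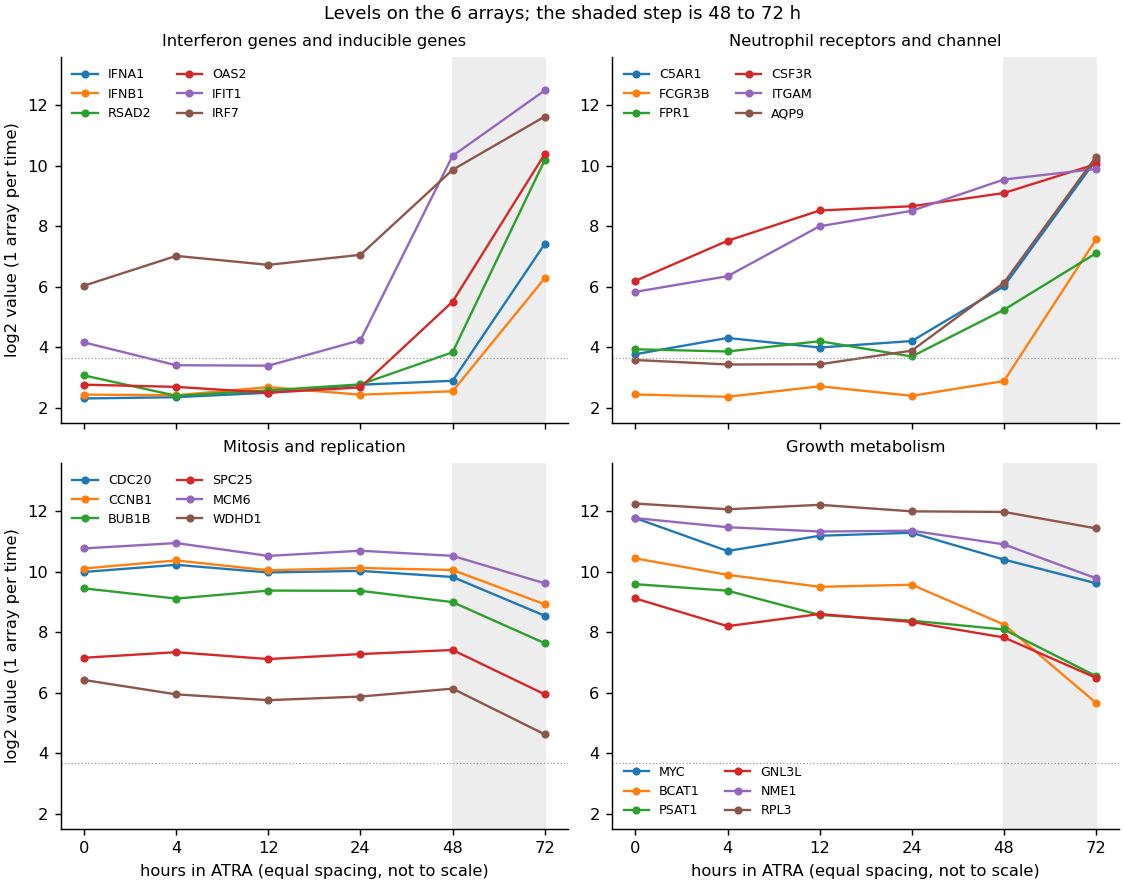
Log2 value on each of the 6 arrays (0, 4, 12, 24, 48 and 72 h, equally spaced) for 6 genes in each of 4 panels, 1 array per point and no error bars, with the 48 to 72 h step shaded and the low-signal level of 3.66 dotted. Interferon genes such as RSAD2 (3.84 to 10.19) and receptors such as C5AR1 (6.02 to 10.20) are higher at 72 h, CDC20 (9.83 to 8.54) leaves a flat course, and BCAT1 (8.25 to 5.66) was already below its untreated level at 48 h.

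The interferon system held many of the largest differences of the day, and its ligands were among the higher genes. IFNB1, interferon beta, read 2.44, 2.41, 2.68, 2.43 and 2.55 up to 48 h and 6.29 at 72 h, at least 6.16-fold higher. IFNA1 read 2.31, 2.35, 2.50, 2.76, 2.89 and 7.42, at least 13.5-fold higher, and IFNA2 went from 2.16 to 6.13, at least 5.55-fold. Each was below the low-signal level on all 5 earlier arrays and entered the analysis through the 72 h array alone, and the interferon alpha genes are near-identical, so a probe set can read several. The receptor chains IFNAR1 (-0.02) and IFNAR2 (0.16) were close to their 48 h level and IFNGR1 was higher by 1.07.

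Signalling genes of the pathway were partly higher. JAK2 was 2.39-fold higher, while JAK1 (0.26) and TYK2 (0.03), the kinases of the type I receptor, were close to their 48 h level. The feedback inhibitors USP18 (7.72-fold) and SOCS1 (2.70-fold) were higher. Of 8 interferon regulatory factors 2 were called. IRF7, which amplifies interferon alpha production, read 6.04, 7.02, 6.73, 7.06, 9.87 and 11.63, 3.39-fold higher at 72 h than at 48 h, and IRF2 was higher by 1.09. IRF9 was just short at 0.99, and IRF3 differed by -0.07.

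Of 46 kept interferon-stimulated antiviral genes 41 (89.1%) were 2-fold or more higher, where 4.74% of all kept genes were, and none was 2-fold lower. Their median was 2.03. All 46 had their highest value at 72 h, against 23.9% of all kept genes. Of the 46, 4 were kept through the 72 h array alone, and without them 38 of 42 were 2-fold higher. The count of 41 was 36 with all hybridisation controls set equal and 38 with bioB, bioD and cre. In the step before, from 24 to 48 h, the median of the same list was 2.38. OAS2, which makes the activator of RNase L, read 2.76, 2.69, 2.50, 2.67, 5.51 and 10.39, with most of its difference in the last step. IFIT1, which binds viral RNA ends, read 4.16, 3.41, 3.39, 4.24, 10.33 and 12.50, with most of its difference in the step before. The 5 members short of 2-fold were PARP14, EIF2AK2, TRIM25, ADAR and BST2. MX1 was represented by a low probe set and was at least 6.90-fold higher.

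The interferon-stimulated response element, the motif through which type I interferons act on their target genes, was searched as GAAA, any 2 bases and GAAA again, on both strands because these genes were higher together. It was present in 25 of 39 promoters of the list (64.1%), in 3.66% of all promoters and in 2.81% of the promoters of kept genes. The 60-base stretches are those of IFI27 (chr14:94110616-94110675), ISG20 (chr15:88638922-88638981), IFI44 (chr1:78649729-78649788) and RTP4 (chr3:187368325-187368384), all on the plus strand of GRCh38.p14 in the RefSeq table, with matches on either strand in capitals.
IFI27: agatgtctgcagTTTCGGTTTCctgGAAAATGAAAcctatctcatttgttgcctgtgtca
ISG20: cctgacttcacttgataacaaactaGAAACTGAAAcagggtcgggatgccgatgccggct
IFI44: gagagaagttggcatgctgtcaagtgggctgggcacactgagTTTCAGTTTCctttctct
RTP4: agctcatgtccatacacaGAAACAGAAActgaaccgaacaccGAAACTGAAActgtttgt
IFI27 and RTP4 hold 2 matches each, and ISG20 and IFI44 hold 1. At 72 h ISG20 was 26.8-fold higher than at 48 h, IFI44 went from 6.69 to 10.86, and RTP4 was at least 10.9-fold higher.

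Sensors of foreign nucleic acid were 2-fold higher for 7 of 14 members, where 4.74% of all kept genes were, with a median of 1.02. Of the 14, 1 was kept through the 72 h array alone and had to be higher there. AIM2, a sensor of cytosolic DNA, read 2.81, 3.12, 3.42, 3.36, 3.80 and 7.59, 13.8-fold higher at 72 h. RIGI (2.39), IFIH1 (1.99) and IFI16 (2.06) were higher too, while the adaptors MAVS (-0.03) and STING1 (-0.36) were not. All 5 guanylate-binding protein genes were 2-fold higher, with a median of 2.76, GBP2 by 8.30-fold and GBP5 by 6.75-fold. Antigen presentation showed 6 higher calls among 17 genes (35.3%, against 4.74% of all kept genes) and a median of 0.83. The peptide transporter TAP1 was 6.69-fold, the class II chaperone CD74 4.30-fold and HLA-E 2.70-fold higher, with HLA probe sets open to cross-reading between loci. PML, itself induced by interferon, was higher by 0.76 in all 9 of its probe sets.

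Chemokines were higher for a few members with large differences. CCL8, which attracts monocytes, read 2.21, 2.03, 2.35, 1.98 and 2.17 before 7.47 at 72 h, at least 14-fold higher. CXCL10, which attracts activated lymphocytes, read 3.59, 2.94, 3.17, 6.13, 7.59 and 12.58, and CXCL11 was at least 4.26-fold higher. CCL2 was already at 9.21 at 4 h and 10.89 at 48 h, and reached 12.71. In all, 5 of 14 CC chemokine genes (median 0.62) and 2 of 5 CXC chemokine genes (median 0.39, negative under all 3 control-based scalings) were 2-fold higher. CCL8, CCL7 and CXCL11 passed the low-signal level through the 72 h array alone and had to be higher there; without such members 3 of 12 and 1 of 4 were called, with medians of 0.37 and 0.12. CXCL8 differed by 0.39.

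Inflammasome and cell death genes followed in part. Of 16 genes of the IL-1 family and inflammasome 5 were 2-fold higher, with CASP1, which cleaves IL-1 beta, 1.81 higher in 5 of 5 probe sets, IL1B 1.69 and NLRP3 1.13. Of 18 death receptor and caspase genes 4 were called, and their median of 0.16 turned negative under the control-based scalings (-0.27 to -0.12). TNFSF10 (TRAIL), a death ligand that retinoic acid and interferon both induce, read 5.60, 3.71, 3.56, 3.65, 7.10 and 11.05, so that its level was lower from 4 to 24 h than in untreated cells and 15.5-fold above 48 h at 72 h. FAS was 2.52-fold and the necroptosis effector MLKL 2.58-fold higher, while CASP8 (-0.08) and FADD (-0.13) were close to their 48 h level. In the BCL2 family PMAIP1 (NOXA) was higher by 1.92 and BCL2 by 0.12, and its list median of 0.28 turned negative with all hybridisation controls or the poly-A spikes set equal.

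**Figure D4:**
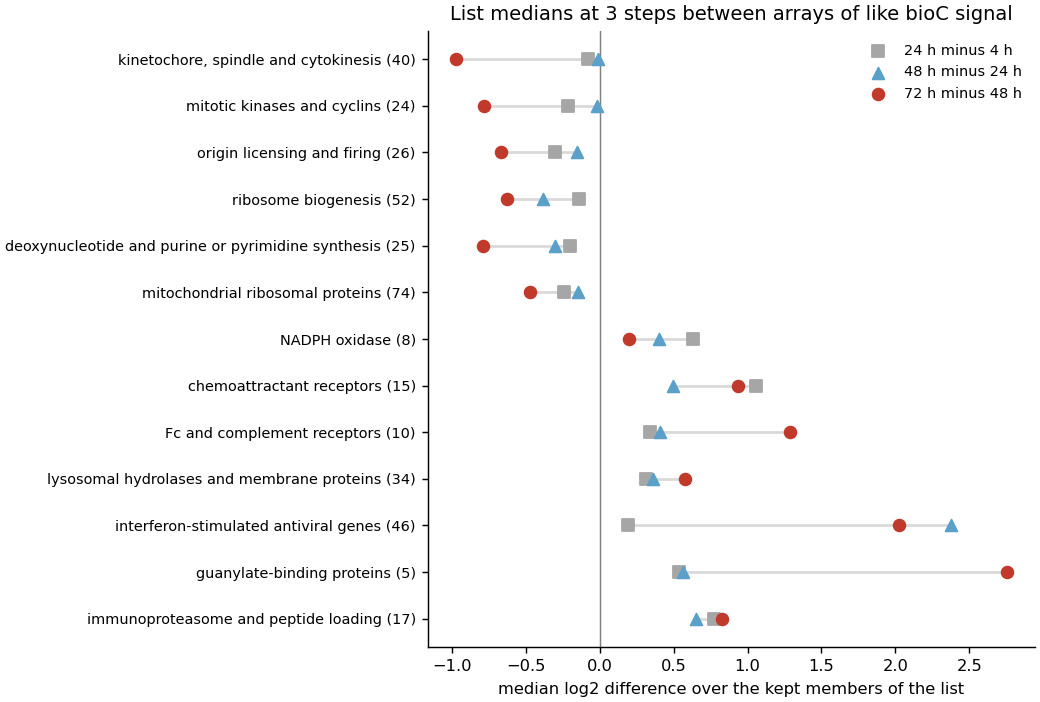
Median log2 difference of 13 gene lists in 3 steps, 24 minus 4 h (squares), 48 minus 24 h (triangles) and 72 minus 48 h (circles), each from single arrays; the last 2 steps share the 48 h array. The interferon-stimulated list stands at 2.38 and 2.03 in the last 2 steps, and the kinetochore list at -0.97 in the last.

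A few genes turned at 48 h. CHI3L1, a chitinase-like granule protein, read 7.04, 7.29, 7.78, 7.20, 5.42 and 7.31, and the vasodilator gene ADM read 8.16 at 24 h, 6.91 at 48 h and 8.75 at 72 h. JUN read 7.06, 6.04 and 7.85 over the same times. The receptor TREM1, the repressor TGIF1, VEGFA and the phosphodiesterase gene PDE9A shared this dip, and CRISP3 and CDC14A had the opposite course with a peak at 48 h. Because both steps use the 48 h array, such a course rests on that array.

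Markers of other blood and tissue cells were measured on the same arrays. The 13 monocyte and macrophage markers averaged 3.36 at 48 h and 3.83 at 72 h, and 5 of them passed the low-signal level. Of these CD163 (1.33), CD86 (1.31) and CSF1R (1.14) were 2-fold higher, but with all hybridisation controls or the poly-A spikes set equal none of 6 kept markers was, and with bioB, bioD and cre 2 of 7 were. By contrast MRC1, MSR1, VCAN, C1QA, C1QB and C1QC stayed below the level and CD14 read 3.17 and 3.43. The part of such cells in the receptor, lysosome and chemokine differences was not tested, and in bulk RNA more cells of a type and more RNA per cell cannot be told apart. Markers of eosinophils and basophils (5.95 and 6.06), B cells (4.41 and 4.51), T and NK cells (4.81 and 4.81), erythroid cells (4.75 and 4.68), megakaryocytes (3.98 and 4.02) and of fibroblasts and epithelium (3.72 and 3.61) had no member 2-fold higher.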

How the data were processed

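NB4 cells were profiled on 1 Affymetrix array per time, with RNA isolated on columns and labelled as biotinylated cRNA, per the labels' protocols. The deposited log2 values of the series table, made by the authors with RMA per the submitters' processing notes, were used as given; its version, parameters and annotation build were not given in the sources used here. Background correction, quantile normalization and median polish, of which RMA consists, compress low differences and force equal distributions. Values were joined to the platform annotation (41097 probe sets with 1 gene, 1801 with several, 11777 with none), symbols were updated through gene identifiers, and 6 control probe sets with 1 gene were set aside.

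Each gene took the probe set with the highest mean, was kept where its highest value reached 3.66, and was counted at 2-fold or more. Where one end lay below 3.66 the fold was taken against that level and given as "at least". With 1 array per time there was no test, and precision is limited by the number of arrays. The calculations were tested on simulated data. Python 3.11.15, numpy 2.4.6, pandas 2.3.3, matplotlib 3.10.9 and, for cyclic loess, R 4.3.3 with limma 3.58.1 were used.

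Named were the 15 largest differences each way with both ends measured, 6 each way with a low end, 10 each way among genes flat to 48 h, up to 8 each way turning at 48 h, the 6 largest members of each list and any member of lists of up to 20, and 12 genes fixed by name. Further genes that spell out a count or a contrast were picked after their values were seen. The members and lists were chosen with earlier results of these data known. Alternatives were other scalings, probe set choices, filters and thresholds.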

Additional observations from a re-analysis of the deposited data

How the results depend on the processing

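The counts of 644 higher and 291 lower genes depended on the fold threshold and on the scaling. They were 758 and 171 after cyclic loess, and 394 and 1113 with the median level of all hybridisation controls set equal. With bioB, bioD and cre set equal they were 478 and 670. With the poly-A spikes set equal, an alternative added after seeing the data, they were 381 and 1181. The mean of all probe sets gave 501 and 184, a 1.5-fold threshold 1298 and 1425, and a 3-fold threshold 283 and 26. Leaving out x_at probe sets, dropping, tightening or averaging the filter, setting low ends to the filter level and, added after seeing the data, requiring all probe sets of a gene to agree in sign kept both counts within 1.5 times. Of 75 list medians, 19 changed sign with all hybridisation controls set equal, 14 with bioB, bioD and cre, 20 with the poly-A spikes and 4 after cyclic loess. Most of these lay nearer to 0 in the deposited scaling than 0.187, the median SD between probe sets of a gene. Those beyond it were, with all hybridisation controls, BCL2 family (-0.053), CXC chemokines (-0.083), NADPH oxidase (-0.14), NRF2 targets (-0.088), autophagy (-0.12), hypoxia-inducible genes (-0.021) and retinoid response (-0.061). With bioB, bioD and cre those beyond it were CXC chemokines (-0.084) and NADPH oxidase (-0.011). With the poly-A spikes they were BCL2 family (-0.073), CXC chemokines (-0.23), NADPH oxidase (-0.16), NRF2 targets (-0.11), Toll-like receptors (-0.10), autophagy (-0.14), hypoxia-inducible genes (-0.042) and retinoid response (-0.059), and with cyclic loess the proteasome (0.034). The cause of the differences between scalings was not tested. Of 537 values of named genes under the alternatives, 286 moved by at least the SD of 0.187 and 0 counted as reversed. Both figures were partly fixed in advance. Each control-based scaling shifts all genes by 1 constant larger than 0.187, so every named gene counted as moved under it. Shifts of that size are too small to reverse a 2-fold difference. Only genes at 2-fold or more in the deposited scaling could count as reversed, so smaller differences that changed sign are not included. No paired analysis was possible because each time has 1 array. Signal over background limits the low ends, which are given as bounds, and the spread between cultures is not known.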

Other observations

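Several gene groups were put together after their values had been seen, and their counts are descriptions of these arrays. All 7 kept metallothionein genes, whose products bind zinc and copper, were 2-fold or more higher at 72 h than at 48 h, with a median of 1.80. MT2A read 10.90, 10.61, 10.78, 9.97, 10.05 and 12.13 over the 6 times, 4.23-fold higher in the last step. These genes are close copies and the result rests on x_at probe sets, which can match several transcripts: without them 1 metallothionein gene was kept, 0 were 2-fold higher and its difference was 0.081. HMOX1, which breaks down haem, lay between 3.81 and 4.28 until 48 h and read 6.77 at 72 h. Of 11 AP-1 factor genes 5 were higher by 2-fold, where 4.74% of all kept genes were, with a median of 0.84. Of 9 checkpoint ligand and receptor genes 5 were, with CD274 at 2.65, 3.24, 2.85, 2.67, 4.99 and 9.32. C-type lectin genes had 5 of 10, and CLEC7A (dectin-1), a receptor for fungal glucan, read 2.25, 2.73, 2.70, 2.84, 5.20 and 8.73. Of 15 type I interferon genes 6 were kept, 5 of them through the 72 h array alone, and 5 were 2-fold higher.

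On the lower side, 3 of 14 genes of DNA methylation and chromatin maintenance were 2-fold lower and 1 was higher, with a median of -0.64. Of 21 mitochondrial import genes 2 were lower, with a median of -0.58. With all hybridisation controls set equal, 7 of the 14 and 8 of the 21 were 2-fold lower. Zinc finger genes, a large family with no common role here, served as a contrast, with 4 of 295 higher, 0 lower and a median of -0.02. With all hybridisation controls set equal, 11 of 302 zinc finger genes were 2-fold lower, 3 were higher and the median was -0.36. Endoplasmic reticulum chaperone and unfolded protein response genes (21 kept, median 0.08), cholesterol synthesis (19, median -0.01) and p53 targets (19, median -0.15) had 1 higher gene each and 0 lower. The medians of the zinc finger and cholesterol genes turned positive after cyclic loess, and that of the reticulum genes turned negative with the spiked controls set equal. Of 18 hypoxia-inducible genes 2 were higher and 1 lower, and their median of 0.31 turned negative with all hybridisation controls or the poly-A spikes set equal.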
